A study of Mus musculus with 4 samples.

Results

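The genes described here are 10 genes of MHC class I antigen presentation: the class I heavy chains H2-K1 and H2-D1, their light chain B2m, the peptide transporter genes Tap1 and Tap2, the loading factor Tapbp, the immunoproteasome subunits Psmb8, Psmb9 and Psmb10, and the class I transactivator Nlrc5. They were chosen by name, from the gene name that the array files give to each probe, and they have 13 of the 39429 probes for transcripts on the array. Of these 13 probes, 11 gave a usable signal and represent all 10 genes among the 18392 genes tested. The study cultured tubular cells from kidneys of male mice aged 8 weeks on a B6.J background and measured their RNA on arrays with a single dye. There were 2 wild type and 2 SerpinB2-/- samples, and every sample had been given the phorbol ester PMA, an activator of protein kinase C, at 100 ng/ml. No untreated samples were analysed here, so each value describes PMA-treated cells. The labels name neither the deleted part of Serpinb2 nor how many animals supplied the cells, and they do not call the samples separate cultures. The p-values below therefore measure the spread between these samples, which may be technical.

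MHC class I molecules show short peptides from inside the cell to cytotoxic T cells and natural killer cells. Proteasomes cut proteins into peptides, the TAP transporter carries these into the endoplasmic reticulum, and tapasin helps them bind a heavy chain paired with beta-2 microglobulin. Tubular cells present antigen this way in inflamed kidney, and interferons and NLRC5 are known inducers of most of these genes.

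Several class I pathway genes were lower in SerpinB2-/- cells. Tap1 fell to 48.3% of its wild type signal, Psmb9 to 62.0% and Psmb8 to 67.7%, and the heavy chain H2-D1 and tapasin gene Tapbp fell less. H2-K1, Tap2, B2m and Psmb10 did not pass the test. Of the 10 genes 6 were called lower and 0 higher by limma at a Benjamini-Hochberg adjusted p under 0.05, where 9.67% of all genes tested were called lower, 6.01% higher and 15.7% in either direction. The sixth call is Nlrc5, whose probe was dim and entered the test through the wild type arrays alone. Where probes had to be well above background on all arrays, 5 of 9 genes were called lower and Nlrc5 was not tested. Over all genes 1746 were called lower and 1235 higher under that filter, beside 1779 and 1105 under the main filter. Both SerpinB2-/- samples lay below both wild type samples for 9 of the 10 genes, against 31.9% of all genes, and above both for 0, against 32.5%. The 9 include Nlrc5, whose order is no support because of how its probe entered the test. The median log2 change of the 10 genes was -0.34 (-0.30 over the 9 without Nlrc5), against 0.01 for all genes. The count of 6 became 2 (Tap1 and Psmb9) when either wild type sample was left out (where genes called lower over all genes went from 1779 to 603 and 536), and 0 when dim probes were kept, where 3 genes in all were called.

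All signals below are deposited scanner intensities, averaged over the spots of a probe and scaled so that the 75th percentile was the same on each array. Log2 changes are SerpinB2-/- minus wild type with the standard error of the fit (n = 2 per genotype). Signals of different probes cannot be set against each other as transcript levels. The 75th percentile lay between 1902 and 2143 intensity units before scaling, which is 313 to 385 times the negative control median, and no spot was saturated. Serpinb2 itself gave 3207 and 3276 units in the wild type samples and 5.47 and 7.39 in the SerpinB2-/- samples, where it was not well above background, so the arrays followed their labels.

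**Figure D1:**
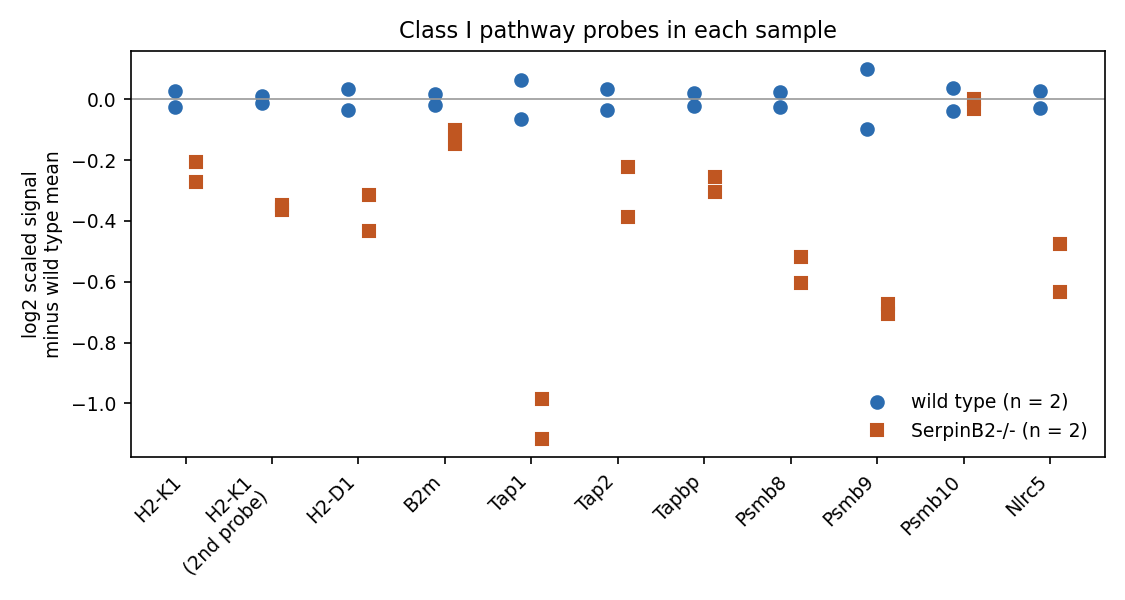
Log2 scaled signal of the 11 measured class I pathway probes in each sample, minus the mean of the 2 wild type samples (circles wild type, squares SerpinB2-/-, n = 2 each). The squares lie below both circles for every probe except that of Psmb10, and lie lowest for Tap1.

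The class I molecule on the cell surface is a heavy chain bound to beta-2 microglobulin. H2-D1, one of the classical heavy chains, gave 11129 and 11673 units in the wild type samples and 9159 and 8434 in the SerpinB2-/- samples. The groups did not overlap, and H2-D1 fell by 0.37 ± 0.07 (adjusted p = 0.0323 by limma). This call ended with median scaling (-0.24, adjusted p = 0.0730), with dim probes kept (adjusted p = 0.139) and without any 1 of the 4 samples (adjusted p = 0.0540 to 0.128).

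H2-K1, the other classical heavy chain tested, had a pair of measured probes. The brighter gave 43222 and 41668 units in the wild type samples and 35162 and 36802 in the SerpinB2-/- samples, a difference of -0.24 ± 0.06 (95% interval -0.40 to -0.08, adjusted p = 0.0633 by limma). It missed the threshold although the groups were apart. The other probe gave 10370.3 and 10206 units in the wild type samples and 8087 and 7988 in the SerpinB2-/- samples. It fell by 0.36 ± 0.06 and passed when every measured probe was tested by itself (adjusted p = 0.0219 by limma, where 10.2% of 24174 probes were called lower and 5.79% higher). With the mean of both probes H2-K1 passed (-0.30, adjusted p = 0.0310 by limma). The brighter probe alone passed with quantile normalization (-0.31, adjusted p = 0.0312), with scaling on probes detected on all arrays (-0.28, adjusted p = 0.0464) and with a variance trend in limma (adjusted p = 0.0274). Whether H2-K1 is called therefore depends on the probe and on the setting. Both probes had lower signals in SerpinB2-/- samples, and the one printed here is the one that passed. It lies on the minus strand at chr17:34133984-34134043 (mm9).

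H2-K1 probe: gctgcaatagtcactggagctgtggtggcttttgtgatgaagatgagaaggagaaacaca

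B2m, the light chain shared by all class I molecules, gave 91305 and 89052 units in the wild type samples and 84020.0 and 81450.4 in the SerpinB2-/- samples. Both SerpinB2-/- values were below both wild type values, but by little. The difference was -0.12 ± 0.06 (95% interval -0.27 to 0.02, adjusted p = 0.203 by limma), and with median scaling it was 0.01. A fall of B2m as large as that of Tap1 lies outside this interval.

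Peptides enter the endoplasmic reticulum through a transporter made of TAP1 and TAP2. Tap1 gave 94.5 and 86.4 units in the wild type samples and 41.7 and 45.7 in the SerpinB2-/- samples. The wild type samples were about double the SerpinB2-/- samples, a gap far wider than that within either genotype (0.13 log2 in each). Tap1 fell by 1.05 ± 0.08 (adjusted p = 0.00714 by limma), which ranked 196 from the lowest of 18392 genes. With normexp background correction, which adds an offset to every signal, Tap1 fell by 0.49 (adjusted p = 0.0231). Its adjusted p lay between 0.00357 and 0.0609 over the alternatives and missed the threshold in 1 of 17, with dim probes kept.

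Tap2, the partner chain, gave 3152 and 3007 units in the wild type samples and 2353 and 2641 in the SerpinB2-/- samples. The groups did not overlap, yet the difference of -0.30 ± 0.08 (95% interval -0.51 to -0.10) missed the threshold (adjusted p = 0.0668 by limma, and 0.0334 with a variance trend). Tapbp encodes tapasin, which holds the heavy chain at the transporter and edits its peptide. It gave 4728 and 4876 units in the wild type samples and 3885 and 4021 in the SerpinB2-/- samples. Both SerpinB2-/- samples were lower, and Tapbp fell by 0.28 ± 0.06 (adjusted p = 0.0409 by limma). The call ended with median scaling (-0.15, adjusted p = 0.119), with dim probes kept (adjusted p = 0.167) and without any 1 of the 4 samples (adjusted p = 0.112 to 0.160).

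Interferons replace 3 catalytic subunits of the proteasome with the inducible Psmb8, Psmb9 and Psmb10, which change the peptides that are cut. Psmb8 gave 588 and 569 units in the wild type samples and 380.2 and 403 in the SerpinB2-/- samples. All SerpinB2-/- values were lower, and Psmb8 fell by 0.56 ± 0.06 (adjusted p = 0.0113 by limma). Without wild type replicate 1 or 2 its adjusted p was 0.0556 or 0.0504. Psmb9 gave 139 and 121 units in the wild type samples and 79.6 and 81.4 in the SerpinB2-/- samples. The wild type samples differed by 0.20 log2 and the SerpinB2-/- samples by 0.03, and Psmb9 fell by 0.69 ± 0.08 (adjusted p = 0.0135 by limma). With normexp Psmb9 fell by 0.41 (adjusted p = 0.0285). A further Psmb9 probe was not well above background on any array (6.35 and 5.22 units in the wild type samples, 5.54 and 6.12 in the SerpinB2-/- samples).

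Psmb10 did not pass the test. It gave 20799 and 19712 units in the wild type samples and 20255 and 19805 in the SerpinB2-/- samples, so the groups overlapped. The difference was -0.02 ± 0.06 (95% interval -0.17 to 0.14, adjusted p = 0.877 by limma), and it was 0.12 with median scaling.

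The constitutive subunits whose places these take did not pass the test: Psmb5 differed by 0.01 ± 0.08, Psmb6 by 0.02 ± 0.06 and Psmb7 by -0.05 ± 0.06. Within each array the log2 signal of each inducible subunit was set against that of its constitutive partner, and only the change of this difference between genotypes was read. It was -0.58 for Psmb8 against Psmb5 and -0.71 for Psmb9 against Psmb6, each larger than the widest gap between samples of a genotype (0.07 and 0.14). For Psmb10 against Psmb7 it was 0.04, about the gap within a genotype (0.03 and 0.04). Each comparison gave an exact two-sided permutation p of 0.333, the smallest that 2 samples against 2 allow, so none can pass 0.05.

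The probes that read the falls of Tap1, Psmb9 and Psmb8 are printed because the largest differences were read through them. They lie at chr17:34330854-34330913 on the plus strand (Tap1), chr17:34319174-34319233 on the minus strand (Psmb9) and chr17:34337771-34337830 on the plus strand (Psmb8), all in mm9, within the stretch of the MHC where these genes are neighbours.

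Tap1 probe: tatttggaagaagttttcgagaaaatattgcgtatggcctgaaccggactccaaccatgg

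Psmb9 probe: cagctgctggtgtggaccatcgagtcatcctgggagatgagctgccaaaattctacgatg

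Psmb8 probe: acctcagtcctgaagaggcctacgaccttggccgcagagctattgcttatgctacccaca

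NLRC5 is the transactivator that assembles on class I promoters. Its measured probe gave 45.1 and 46.8 units in the wild type samples and 29.6 and 33.0 in the SerpinB2-/- samples. It was well above background on 3 of the 4 arrays, the exception being SerpinB2-/- replicate 2. The probe met the filter through the wild type arrays alone, so its value in SerpinB2-/- samples is uncertain and its call is no support for a change. The log2 difference was -0.56 ± 0.08 (adjusted p = 0.0173 by limma). This call ended with normexp (-0.18, adjusted p = 0.256) and with outlier spots kept (-0.69, adjusted p = 0.0598). It also ended without wild type replicate 1 or 2 (adjusted p = 0.0639 or 0.0752). A further Nlrc5 probe was not well above background on any array, with 8.65 and 9.78 units in the wild type samples and 10.99 and 12.60 in the SerpinB2-/- samples, so the change of this gene rests on 1 dim probe.

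**Figure D2:**
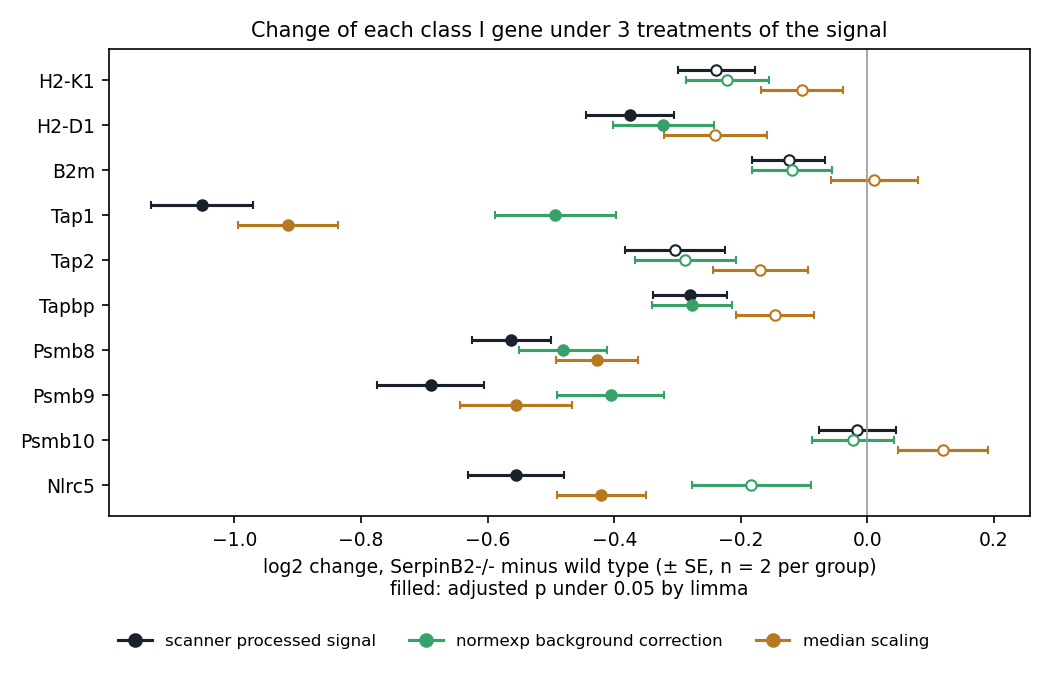
Log2 change of each class I gene, SerpinB2-/- minus wild type, with the standard error (n = 2 per genotype), for the scanner's processed signal, normexp background correction and median scaling. Filled points passed an adjusted p of 0.05 by limma. Normexp moves Tap1 from -1.05 to -0.49 and Nlrc5 from -0.56 to -0.18, and median scaling shifts every gene upward by the same amount.

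The 4 lowest log2 changes were at the 4 dimmest measured probes. Tap1, Psmb9, Psmb8 and Nlrc5 had wild type signals of at most 588 units, while the other 7 measured probes had at least 3007. An offset on the signal shrinks a change most at a dim probe, and normexp gave log2 changes of -0.49 for Tap1, -0.41 for Psmb9, -0.48 for Psmb8 and -0.18 for Nlrc5. The brighter H2-D1 and Tapbp were at -0.32 and -0.28 under the same correction. The order of the changes among these genes therefore differed between the corrections.

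Promoter sequence is shown because class I heavy chain and B2m promoters are textbook examples of shared control elements. A RefSeq table of build GRCm38.p6 held 9 promoter windows for 8 of the 10 genes, each from 250 bases before to 50 bases after a transcript start. Each window was searched on both strands for 4 short motifs: TTTCNNTT, the core of an interferon response element, GGNNNTTCC, part of a kappa B site, TGACG, the core of the X2 box, and ATTGG, the inverted CCAAT box to which NF-Y binds. Of 32851 windows of this length, 23.9% held the first, 18.5% the second, 20.8% the third and 37.4% the fourth, and 7.7% held both the X2 core and the CCAAT box. The stretches below were cut to 150 bases upstream of a transcript start, with the heavy chains placed so that they line up. Capitals mark the motif matches. The stretches lie at chr17:34000348-34000497 on the minus strand (H2-K1), chr17:35262884-35263033 on the plus strand (H2-D1) and chr2:122147537-122147686 on the plus strand (B2m).

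H2-K1: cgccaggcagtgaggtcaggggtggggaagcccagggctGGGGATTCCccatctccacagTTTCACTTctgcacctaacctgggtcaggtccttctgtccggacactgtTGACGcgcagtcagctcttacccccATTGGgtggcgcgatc

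H2-D1: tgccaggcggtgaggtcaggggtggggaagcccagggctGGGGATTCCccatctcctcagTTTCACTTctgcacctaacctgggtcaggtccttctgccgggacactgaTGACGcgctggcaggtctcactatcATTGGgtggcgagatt

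B2m: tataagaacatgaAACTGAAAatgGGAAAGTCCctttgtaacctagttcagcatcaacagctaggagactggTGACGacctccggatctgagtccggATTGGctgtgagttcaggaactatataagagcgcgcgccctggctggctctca

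H2-K1 and H2-D1 were identical at 135 of the 150 bases shown (90.0%) and held the 4 motifs in the same order. B2m held all 4 as well, with the interferon and kappa B elements on the opposite strand. These 3 genes share the motifs, and of the 3 only H2-D1 passed the test at its tested probe. A match is a description of these letters and not evidence that a factor binds there.

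Tap1 and Psmb9 are transcribed away from each other, and their starts in the table lie 225 bases apart. That stretch, at chr17:34187331-34187555 (GRCm38.p6, plus strand, read towards Tap1), is printed whole because it lies between the genes with the lowest log2 changes of the 10.

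Between Psmb9 and Tap1: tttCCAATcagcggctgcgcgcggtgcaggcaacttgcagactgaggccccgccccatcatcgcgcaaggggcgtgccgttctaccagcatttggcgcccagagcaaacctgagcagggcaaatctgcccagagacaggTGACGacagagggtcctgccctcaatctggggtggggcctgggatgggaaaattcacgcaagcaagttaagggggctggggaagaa

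It held a CCAAT box and a TGACG core and no match to the other 2 motifs. The windows of Psmb10 and Psmb8 held none of the 4 motifs, and that of Tapbp only the CCAAT box.

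Further class I chains and class I-like genes formed a list of 24, of which 18 were tested. By limma 10 fell, 0 rose and 8 had no call, where 9.67% of all genes were called lower and 6.01% higher. The median log2 change of the list was -0.33, against 0.01 for all genes. Hfe, a class I-like protein that controls iron uptake, fell by 0.54 ± 0.06 (adjusted p = 0.0112). Its signals were 368 and 363 units in the wild type samples and 258 and 245 in the SerpinB2-/- samples, with no overlap. H2-Bl fell by 0.51 ± 0.06 and H2-Q10, a secreted class I chain, by 0.40 ± 0.06. Cd1d1, which presents lipids to natural killer T cells, fell by 0.37 ± 0.08. H2-Q4 differed by -0.08 ± 0.06 (adjusted p = 0.392 by limma, chosen after its values were seen). Class I chains share long stretches of near-identical sequence, so probes of this list, and those of H2-K1 and H2-D1, may read the same transcripts and are not independent. The count of 10 was 3 with median scaling, 0 with dim probes kept, 0 without either wild type replicate, and 2 or 3 without SerpinB2-/- replicate 1 or 2.

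Other genes of the loading machinery were mostly without a call. Of 12 genes of the loading complex, chaperones and peptide trimming, 1 fell and 0 rose, near the 9.67% of all genes called lower, with a median of 0.10. The gene that fell was Tapbpl, a tapasin-related peptide editor, by 0.53 ± 0.07 (adjusted p = 0.0168 by limma), with 593 and 658 units in the wild type samples and 434 and 429.6 in the SerpinB2-/- samples. Calr and Canx, chaperones that hold the heavy chain before loading, differed by 0.10 ± 0.06 and 0.04 ± 0.07, and Erap1, which trims peptides in the endoplasmic reticulum, by 0.10 ± 0.06 (adjusted p = 0.256, 0.733 and 0.289 by limma). These 3 were chosen after their values were seen. With median scaling 5 of the 12 were called higher, where 4338 of all 18392 genes were, so a direction for this list depends on the scaling. Of 7 genes of the proteasome activator and constitutive subunits, 0 were called.

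Regulators of class I transcription were mostly without a call: of 15 tested, 2 fell and 0 rose, a share near the 9.67% of all genes called lower, with a median of 0.05. With median scaling 1 was lower and 5 higher, where 1245 of all 18392 genes were lower and 4338 higher. Irf8, an interferon regulatory factor of myeloid cells, fell by 0.49 ± 0.09 (adjusted p = 0.0285 by limma), and Rfxank, a subunit of the RFX complex that binds the X box, fell by 0.28 ± 0.06 (adjusted p = 0.0465). Irf1, an interferon-induced activator of several of these genes, differed by -0.15 ± 0.07 (adjusted p = 0.214, chosen after its value was seen). Rfx5, another RFX subunit, was not well above background on both arrays of either genotype. The brightest probe of Nfkb1 differed by 0.05 ± 0.08 and had no call. A further Nfkb1 probe, tested by itself, fell by 0.39 ± 0.06 (adjusted p = 0.0234 by limma, chosen after its value was seen). Further measured probes of the other regulators had no call. Of 9 interferon receptor and signalling genes 1 fell and 0 rose, also near the 9.67%, with a median of -0.01 (1 lower and 2 higher with median scaling, beside the same counts over all genes). The called gene was Tyk2, a kinase of the type I interferon receptor, which fell by 0.51 ± 0.05 (adjusted p = 0.0102 by limma), with 758 and 766 units in the wild type samples and 534.1 and 534.0 in the SerpinB2-/- samples. The interferon genes Ifng and Ifnb1 were not measured above background. Over these 5 lists the 14 calls became 1 when wild type replicate 1 was left out and 0 when replicate 2 was. They were 5 without SerpinB2-/- replicate 1, 4 without SerpinB2-/- replicate 2 and 0 when dim probes were kept.

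**Figure D3:**
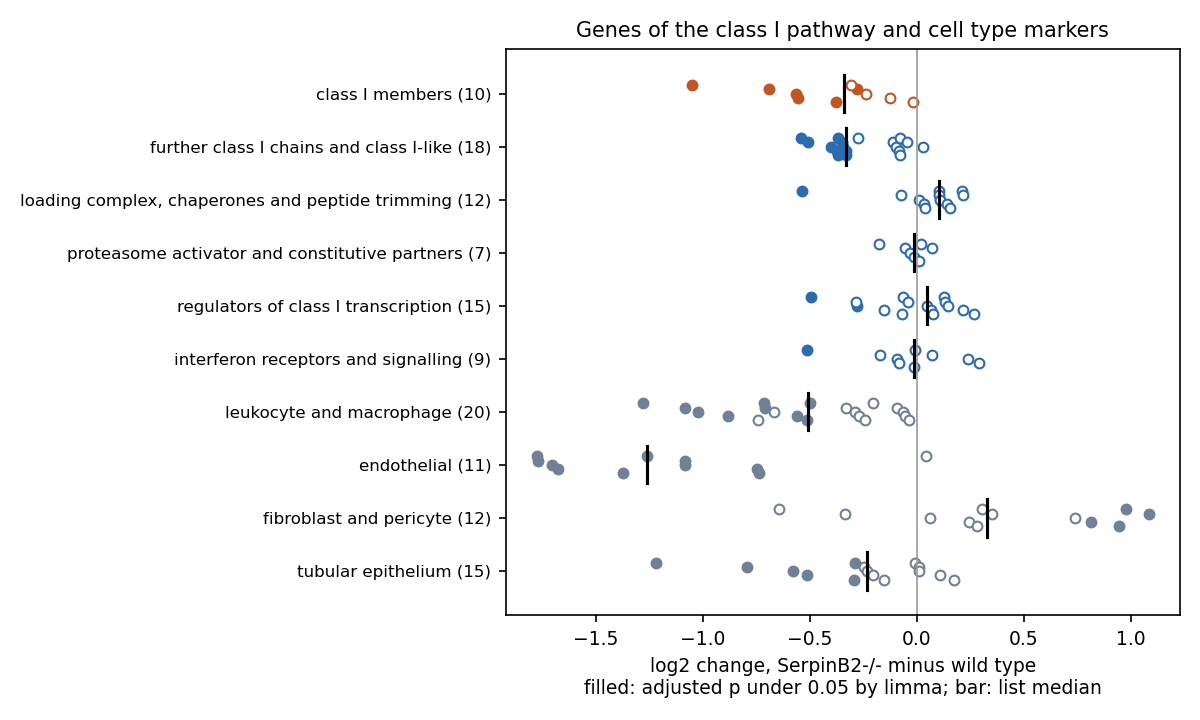
Log2 change, SerpinB2-/- minus wild type, of every tested gene of the 10 class I genes, 5 lists of the pathway and 4 lists of cell type markers, with the number tested in brackets. Filled points passed an adjusted p of 0.05 by limma and bars mark list medians. The class I genes and further class I chains lie mainly below 0 (medians -0.34 and -0.33), the loading chaperones above (0.10), and the endothelial markers lowest (-1.26).

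Markers of other cells moved in the same samples. Class I genes are expressed by leukocytes and endothelium as well as epithelium. In bulk RNA fewer cells of a type and less RNA per cell cannot be told apart. Of 20 tested leukocyte and macrophage markers 9 fell and 0 rose (median -0.51), where 9.67% of all genes were called lower and 6.01% higher. Their summed signal was 33647 to 35869 units in wild type and 26814 to 28544 in SerpinB2-/- samples. Such a sum is weighted towards its brightest probes and is no measure of cell amounts. Among the T and natural killer cell markers of this list, Cd3g, Cd8a and Klrb1c were not measured above background, while Cd3e, Cd4 and Nkg7 were well above it on all 4 arrays and had no call. Of 11 endothelial markers 10 fell and 0 rose (median -1.26), beside the same shares of all genes, with sums of 15826 to 16336 and 9098 to 11497 units. Where probes had to be well above background on all arrays, 10 endothelial markers were tested and 9 fell (1746 genes in all were lower there). The marker left out there was not well above background on every array, so its change is uncertain. Tek, Erg and Cldn5 were not measured above background.

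Of 12 fibroblast and pericyte markers 4 rose, 0 fell and 8 had no call (median 0.33), where 6.01% of all genes were called higher and 9.67% lower. Under median scaling 8 of the 12 were higher, where 4338 of all 18392 genes were. The sums of these markers were 290606 to 358268 units in wild type and 380142 to 439892 in SerpinB2-/- samples. Of 15 tubular epithelial markers 6 fell and 0 rose (median -0.23), beside the same shares of all genes, with sums of 569933 to 570631 and 451776 to 474626 units. Umod, Slc12a1 and Calb1, markers of the loop of Henle and distal tubule, were not measured above background. Aqp2 and Scnn1a, markers of the distal nephron and collecting duct, were well above background on all 4 arrays, as were Krt8, Krt18, Cdh16, Pax8 and Lrp2. Scnn1a fell by 1.22 (adjusted p = 0.00706 by limma), and Aqp2 had no call. Both were named after their values were seen. The part that these cell types have in the class I values was not tested.

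Of the 10 genes 7 lie in the MHC on chromosome 17. The probes not yet placed lie on the plus strand for H2-D1 (chr17:35403886-35403945), Tapbp (chr17:34065963-34066022), Tap2 (chr17:34353116-34353175), B2m (chr2:121978401-121978460) and Nlrc5 (chr8:97051105-97051164). Those of Psmb10 (chr8:108459677-108459736) and the brighter H2-K1 probe (chr17:34133055-34133114) lie on the minus strand, all in mm9. Of these 7 genes 5 fell, and of the 3 elsewhere (B2m on chromosome 2, Psmb10 and Nlrc5 on chromosome 8) 1 was called lower, the dim Nlrc5. Between the outermost probes of the 7 genes, at chr17:34065963-35403945 (mm9), 76 genes other than the 10 were tested. Further class I chains were not taken out of the 76. Of the 76 genes 11 were lower (14.5%, against 9.67% of all genes) and 3 higher, and their median log2 change was -0.05. The 7 of the 10 genes that lie there had log2 changes from -1.05 to -0.24.

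**Figure D4:**
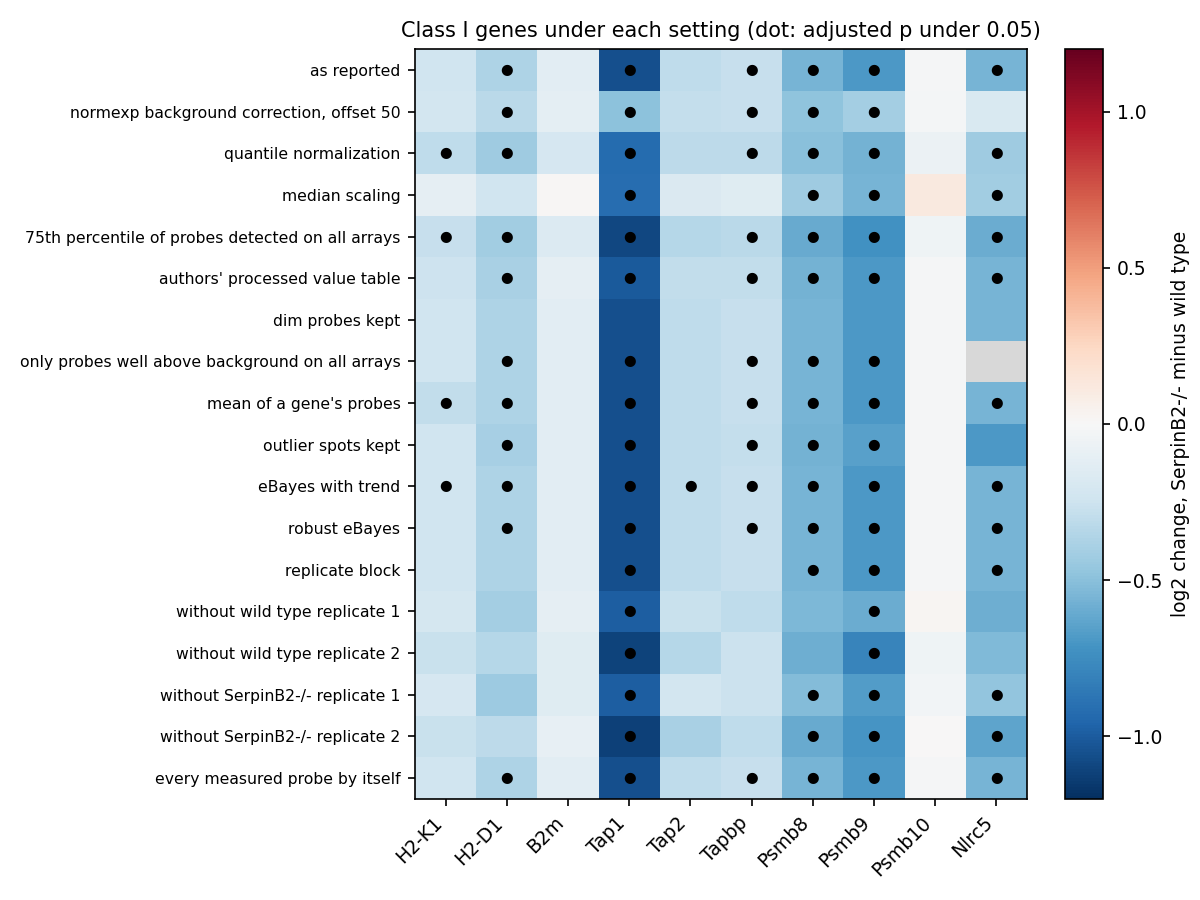
Log2 change of each class I gene under each setting of the processing (colour) and calls at an adjusted p under 0.05 by limma (dots). A grey cell marks Nlrc5, which was not tested where probes had to be well above background on all arrays. Tap1 and Psmb9 carry a dot in every setting shown except the one with dim probes kept, and B2m and Psmb10 carry 0 dots.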

How the data were processed

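Total RNA (150 ng per sample) was labelled with Cy3, 1 array per sample, per the labels' protocols. The deposited intensity values had background subtracted and spatial trends removed within each array by Agilent Feature Extraction (version 10.7.3.1, per the file headers). The probe coordinates use mm9. The authors' deposited table of processed intensity values, whose columns share a 75th percentile of 1500, served as an alternative. How it was made is not given in the sources used here.

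Control and outlier spots were dropped, and log2 signals were averaged per probe and centred on each array's 75th percentile. Kept probes had over 50% of spots well above background on both arrays of either genotype or of both. A gene was represented by its brightest kept probe. The genotypes were compared with limma 3.58.1 (R 4.3.3, lmFit and eBayes), adjusted over all genes, and the procedure was tested on simulated data. Names were updated through a RefSeq table of GRCm38.p6 (28328 probes by accession, 243 by an older symbol). Named by a set rule were the 10 class I genes, Serpinb2, up to 4 called genes per list, and the constitutive subunits Psmb5, Psmb6 and Psmb7. Further genes were named beside this rule, several of them after their values were seen. The members and lists were chosen with earlier results of these data known. The alternatives were other background corrections, scalings, filters, probe rules and variance models, a replicate block, and each array left out. The arrays shared 1 slide, so genotype and position on it cannot be told apart. The number of arrays limits the precision. Some genes of the lists are not reported here by name.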

Additional observations from a re-analysis of the deposited data

How the results depend on the processing

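The 2884 calls over all genes became 5583 with median scaling, which moved the median log2 change of all genes from 0.01 to 0.14 and the balance from 1779 lower and 1105 higher to 1245 lower and 4338 higher. Median scaling shifts every gene by the same amount, so values relative to that median are the same by construction, for example -0.13 for B2m under both scalings. With dim probes kept the calls were 3 over all genes, 0 among the class I genes and 0 in the pathway lists. At an adjusted p threshold of 0.10 there were 4840 calls, and at 0.01 there were 440, of which 1 was a class I gene (Tap1). Leaving out 1 sample gave 753 to 1579 calls over all genes, 2 to 4 among the class I genes and 0 to 5 in the pathway lists. In every other alternative the count of class I genes called lower stayed between 4 and 8, and 0 were called higher in any. It was 8 at the 0.10 threshold and with a variance trend, where 1977 of all genes were lower. With quantile normalization it was 7 (1260 of all genes lower). It was 4 with median scaling (1245 lower) and with the replicate block (1454 lower). At an unadjusted p under 0.05 by limma, 8 of the 10 class I genes were lower, the dim Nlrc5 among them. The share of all genes at that level was not counted, so this count cannot be read as a result about these genes. B2m changed sign with median scaling (0.010). Psmb10 did so with median scaling (0.12) and without wild type replicate 1 (0.023) or SerpinB2-/- replicate 2 (0.00046), in a range of -0.054 to 0.023 when 1 sample was left out. Normexp kept 5 of the 6 calls.

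The labels number the samples 1 and 2 in each genotype without saying that a number marks a shared animal or day. The differences between replicates 1 and 2 correlated across 18392 genes (r = 0.26), which with 2 pairs does not establish a pairing. With the replicate block 2143 genes were called, 4 of them class I genes (H2-D1 and Tapbp missed, adjusted p = 0.0568 and 0.0999), and 6 genes of the pathway lists. The list of further class I chains went from 10 calls to 3. Nlrc5 had 1 array not well above background, where its signal of 33.0 units lay above the lowest well-detected signal of 23.4. That limit is the lowest over all well-detected probes of the array, so it does not make the Nlrc5 value more certain.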
